A study of Mus musculus with 2 samples.

Results

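The hair keratins and keratin-associated proteins, the building material of the hair shaft, were followed in mouse epidermis after induction of the transcription factor SOX11. Members were the non-control array probes named for a Krtap gene or for 1 of 14 hair keratins (Krt31, Krt32, Krt33a, Krt33b, Krt34, Krt35, Krt36 and Krt81 to Krt87). The rule found 81 of 55681 probes, which stood for 65 of 34821 gene names on the array. They were 13 hair keratin genes with 17 probes (9 type I, 8 type II) and 52 Krtap genes of 25 subfamilies with 64 probes, and Krt87 was the hair keratin name without a probe under that name. The accession of the probe named Krt83 carries the symbol Krt87 in the current RefSeq table, and the array's name is kept here.

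Two-colour microarrays had been run on RNA from 2 littermate pairs of FVB/N pups with an age of P4.5 in the labels. In each pair 1 pup carried K14-rtTA and TRE-Sox11-FLAG and the littermate control carried K14-rtTA alone, and both pups received doxycycline (Dox) for 12 h. K14-rtTA makes a Dox-dependent activator under the keratin 14 promoter, so the transgene is driven in keratin 14 positive cells. Each channel held RNA of 1 pup, taken from epidermal sheets that dispase had separated from dorsal skin. Control RNA carried Cy3 and SOX11-induced RNA carried Cy5 on both arrays, so the effects of dye and of genotype on any 1 probe cannot be told apart. A colour swap is mentioned in the study's methods but not in the labels. The pairs are called pair 1 and pair 2, and a log2 ratio above 0 means a brighter signal in the SOX11-induced pup.

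A growing hair is made by matrix cells at the base of the follicle, which stop dividing and fill with intermediate filaments on their way up. Type I and type II hair keratins pair to form these filaments. Keratin-associated proteins then surround the filaments, the cysteine-rich ones through disulfide bonds and the glycine- and tyrosine-rich ones by packing between them. The inner root sheath, a separate follicle layer with its own keratins, moulds the shaft as it rises. The genes mark shaft cells, whereas the interfollicular epidermis is known for Krt5, Krt14, Krt1 and Krt10.

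Hair shaft genes were clearly detected. Of the 81 probes, 72 were well above background in all 4 channels, 5 in some channels and 4 in none, and no member spot was saturated. Signal well above background in 1 channel or more of each array was seen for 92.6% of the member probes and 39.1% of all probes tested. Keratinocyte markers were bright in every channel, with Krt5 between 16.39 and 17.18 and Krt14 between 15.32 and 16.07 on the log2 scale. The 2 Sox11 probes were not well above background in any channel. Whether the transgene's RNA holds the sequence of these probes is not given in the sources used here, so Sox11 itself gave no check of the labels. In pair 1 the RNA of both pups held Xist above background and none of 4 Y-linked genes, and in pair 2 both held Ddx3y, Eif2s3y and Uty above background and not Xist. Sex and litter therefore cannot be told apart as differences between the pairs.

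The 2 pairs gave opposite pictures for hair shaft genes. In pair 1 their signal was higher in the SOX11-induced pup, with a median log2 ratio of 2.12, a 4.34-fold difference. In pair 2 their signal was slightly lower in the SOX11-induced pup, with a median log2 ratio of -0.28, and that sign depends on the normalization (0.48 with each array centred on its median in place of loess). The median over all probes tested was near 0 in each pair. In pair 1, 80 of 81 member probes were above 0 (50.9% of all probes) and 64 of 81 were above 1.5 (0.83% of all probes). In pair 2, 64 of 81 were below 0 (49.3% of all probes), 8 were lower by over 1.5-fold (3.54% of all probes) and 2 were higher by over 1.5-fold (5.5% of all probes). A ratio above 1.5 in pair 1 with a ratio below 0 in pair 2 was found for 53 of 81 member probes and for 0.248% of all probes.

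**Figure D1:**
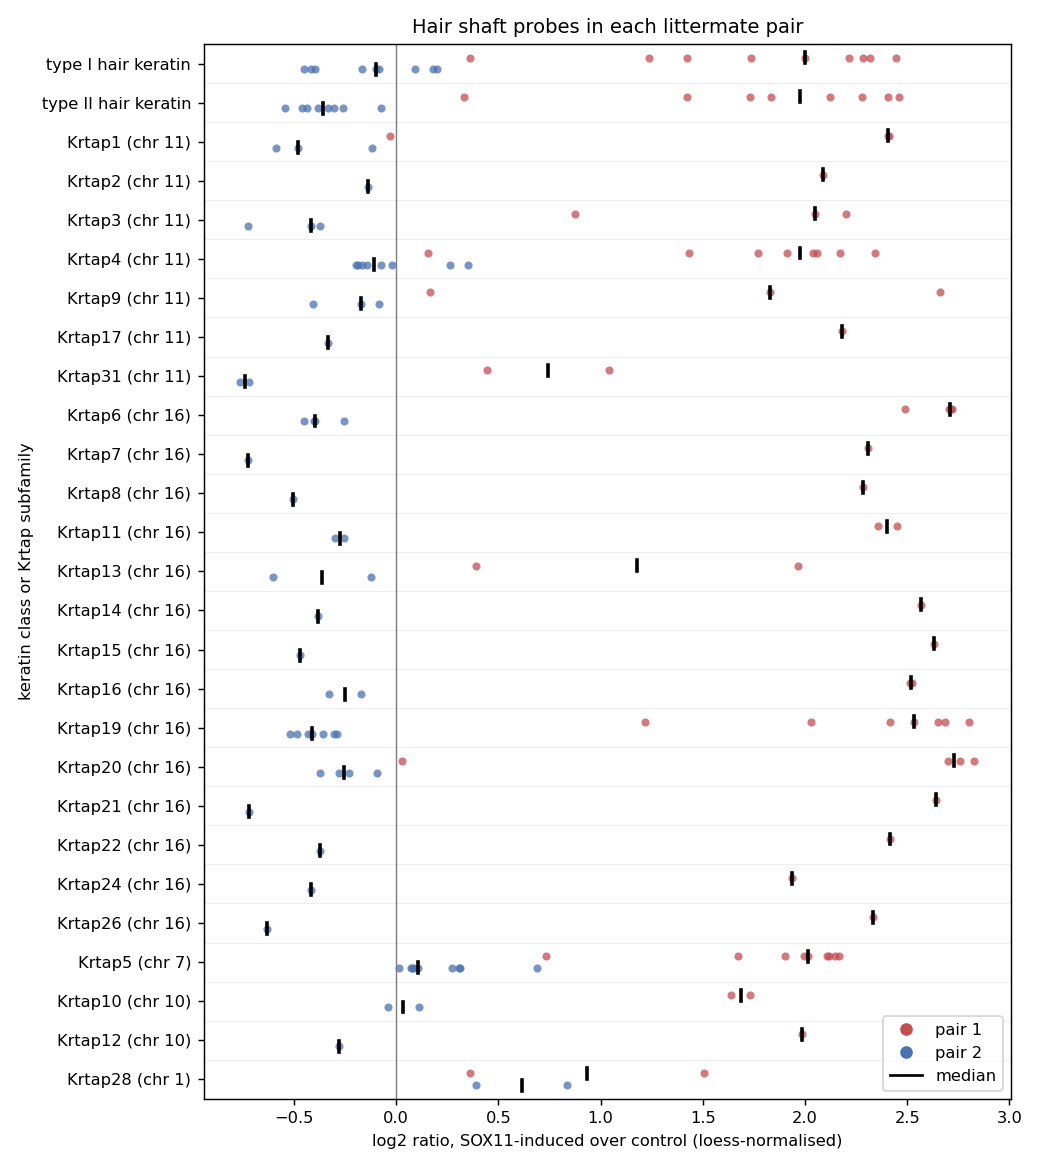
Log2 ratio of SOX11-induced over control signal (x axis, after loess) for each of the 81 hair shaft probes, grouped by keratin class and Krtap subfamily with the chromosome in brackets. Red points are pair 1, blue points are pair 2, and black ticks are medians within a row. Pair 1 points have quartiles of 1.73 and 2.42, while pair 2 points lie between -0.76 and 0.84. With median centring the pair 2 points move upward, and 6 of 81 are then below 0.

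No member was called by the test over both pairs. With limma and Benjamini-Hochberg adjustment over all probes, 0 of 81 member probes passed both thresholds, an adjusted p of 0.05 and a mean ratio past 1.5 on the log2 scale, against 0.366% of all probes called higher and 0.0862% called lower. At an adjusted p under 0.05 alone, 1 of 81 was higher (2.99% of all probes) and none was lower (1.41% of all probes), and 35 of 81 were higher at an unadjusted p under 0.05 (11.9% of all probes). The probe that passed was 1 of the pair of Krtap5-2 probes, named here because it was the single one. Its log2 levels were 7.77 in the control and 9.94 in the SOX11-induced pup of pair 1, and 10.74 and 11.43 in those of pair 2. Its log2 ratios were 2.17 and 0.69, with a mean of 1.43 ± 1.04 (SD, n = 2) and a limma adjusted p of 0.0245, while the brighter Krtap5-2 probe gave 2.02 and 0.01 with a limma adjusted p of 0.15. The spread between the pairs was wide, with a median SD of 1.67 over member probes and 0.157 over all probes.

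The count of calls depended on the centring. With median centring in place of loess, 54 of 81 member probes were called higher at the thresholds of adjusted p 0.05 and log2 1.5, against 1.34% of all probes. That centring raised the median of all probes above background to 0.47 in pair 1 and 0.55 in pair 2, and 54.6% of those probes then passed an adjusted p under 0.05 as higher. Relative to that median, the member median was 2.20 in pair 1 and -0.06 in pair 2, compared with 2.08 and -0.31 after loess. A difference between the pairs of over 2 log2 units was thus present under both.

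The 4 channels showed where the pairs differed. Over the 81 member probes the median log2 level was 9.83 in the control of pair 1, 11.88 in the SOX11-induced pup of pair 1, 12.79 in the control of pair 2 and 12.68 in the SOX11-induced pup of pair 2. The control of pair 1 had the lowest of the 4 levels for 78 of 81 member probes, as it did for 26.7% of all probes. For 72 of 81 the order was the control of pair 1, then the SOX11-induced pup of pair 1, then both pups of pair 2. The same order was found for 4900 of all 55676 probes tested, and it also sets 1 dye beside the other. The control of pair 2 exceeded the control of pair 1 by a median of 3.08, or 8.48-fold, and by over 1.5 for 70 of 81 member probes (0.677% of all probes, with 0.837% that far apart in either direction). The 2 SOX11-induced pups differed by a median of 0.73, and none of the 81 was over 1.5 apart in either direction (0.208% of all probes). These differences between arrays were within 1 dye and were taken after levels had been scaled between arrays. From the scanner software's processed signals the difference between the controls was 3.37, and the control of pair 1 was lowest for 77 of 81 probes. In RNA of whole epidermal sheets, fewer shaft cells and less RNA per shaft cell cannot be told apart.

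**Figure D2:**
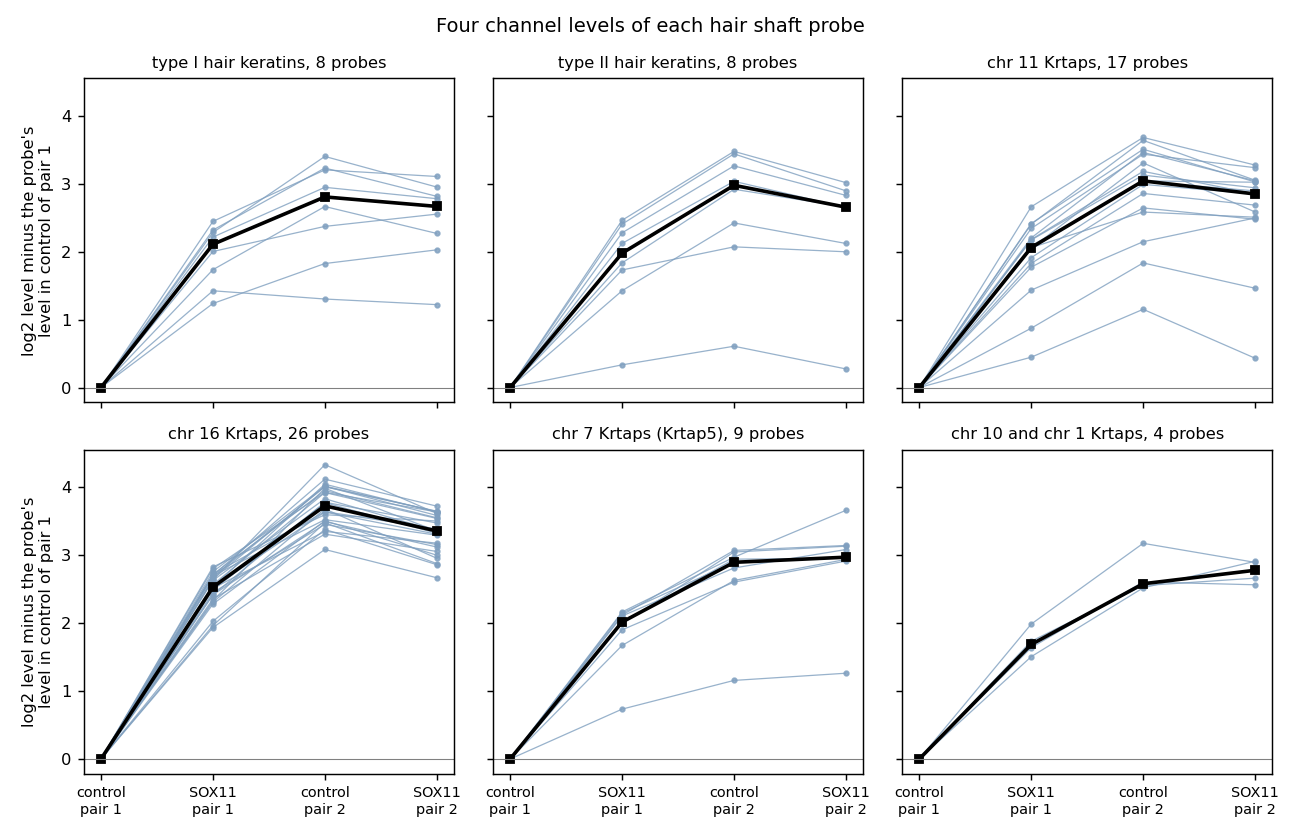
Log2 level of each hair shaft probe in the 4 channels minus that probe's own level in the control of pair 1 (y axis), for the probes well above background in all channels. Thin lines are probes, the black line is the median of the panel, and the panels are keratin classes and chromosome clusters. Nearly every line climbs from the control to the SOX11-induced pup of pair 1, and again to the pups of pair 2. Between those pups, after loess, the chromosome 16 lines turn down and the chromosome 7 lines do not. With median centring 2 of the 29 chromosome 16 probes were below 0 in pair 2.

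Type I hair keratins are the acidic partners of the shaft filaments, and their genes lie together on chromosome 11 (9 probes, mm9, chr11:99872578-99966454). Taking the brightest probe of each gene, all 7 genes were higher in the SOX11-induced pup of pair 1, by 1.42 to 2.45, and the pair 2 values ran from -0.45 to 0.18. The probe of Krt31, a main keratin of the hair cortex, had log2 levels of 12.38 and 14.59 in the control and SOX11-induced pups of pair 1, and 15.32 and 15.16 in those of pair 2. The ratios were 2.21 and -0.17, with a mean of 1.02 ± 1.68 (SD, n = 2) and a limma adjusted p of 0.201. The control of pair 1 was low and the other 3 pups were high, so the SOX11-induced and control groups overlapped.

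Krt33a, Krt33b and Krt34, further cortex keratins, repeated that order. For Krt33a the levels were 12.83 and 15.28 in pair 1 and 16.04 and 15.94 in pair 2, giving ratios of 2.45 and -0.10. For Krt33b the ratios were 2.32 and -0.42, and for Krt34 they were 2.28 and -0.45. Krt32, a keratin of the hair cuticle, gave levels of 6.01 and 7.75 in pair 1 and 8.68 and 8.28 in pair 2. The limma adjusted p of these 4 genes lay between 0.171 and 0.349.

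Krt35 and Krt36 departed from the rest of the class. Krt35, among the first hair keratins to be switched on as matrix cells enter the shaft, had levels of 11.46 and 12.89 in pair 1 and 12.77 and 12.68 in pair 2. On brightest probes its level in the SOX11-induced pup of pair 1 was slightly above that in the control of pair 2, in no other hair keratin. That comparison crosses both dye and array, and the levels, 12.89 and 12.77, were close. Its controls differed by 1.30, the smallest difference of the 13 hair keratins on their brightest probes (highest 3.48, median 3.04). Krt36 was the hair keratin with a pair 2 ratio above 0 after loess. The levels of its brightest probe were 7.62 and 9.62 in pair 1 and 9.99 and 10.17 in pair 2, with ratios of 2.00 and 0.18 and a limma adjusted p of 0.103, the lowest of the hair keratins on their brightest probes. A further Krt36 probe gave 1.24 and 0.20, and the last one was not well above background in any channel.

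Type II hair keratins, the basic partners, lie on chromosome 15 (7 probes, mm9, chr15:101261695-101371719). On the brightest probe of each gene all 6 were higher in the SOX11-induced pup of pair 1, by 1.42 to 2.46, and all 6 were below 0 in pair 2 after loess, at -0.54 to -0.26 (all above 0 with median centring). Krt81 and Krt86 are cortex keratins, and Krt81 had levels of 11.01 and 13.47 in pair 1 and 14.49 and 14.03 in pair 2. Krt86 had ratios of 2.28 and -0.43 and the probe named Krt83, now Krt87 in RefSeq, ratios of 2.40 and -0.54. Krt82, of the cuticle, gave 1.83 and -0.26. Krt84, known also from the tongue, gave the smallest pair 1 ratio of the class on the brightest probes, 1.42, with -0.30 in pair 2. The limma adjusted p of the 6 genes lay between 0.266 and 0.351.

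Krt85, which starts early in the shaft beside Krt35, was read by 3 probes that did not behave alike. The brightest had levels of 11.74 and 13.86 in pair 1 and 14.77 and 14.39 in pair 2, with ratios of 2.12 and -0.38 and a limma adjusted p of 0.292. The second gave ratios of 1.73 and -0.07. The third, which the files place on no chromosome, gave 0.33 and -0.33, with levels of 11.03 and 11.36 in pair 1 and 11.63 and 11.30 in pair 2. The files put the first near the Krt83 probe and 84.4 kb from the second, so the gene that each reads is uncertain.

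**Figure D3:**
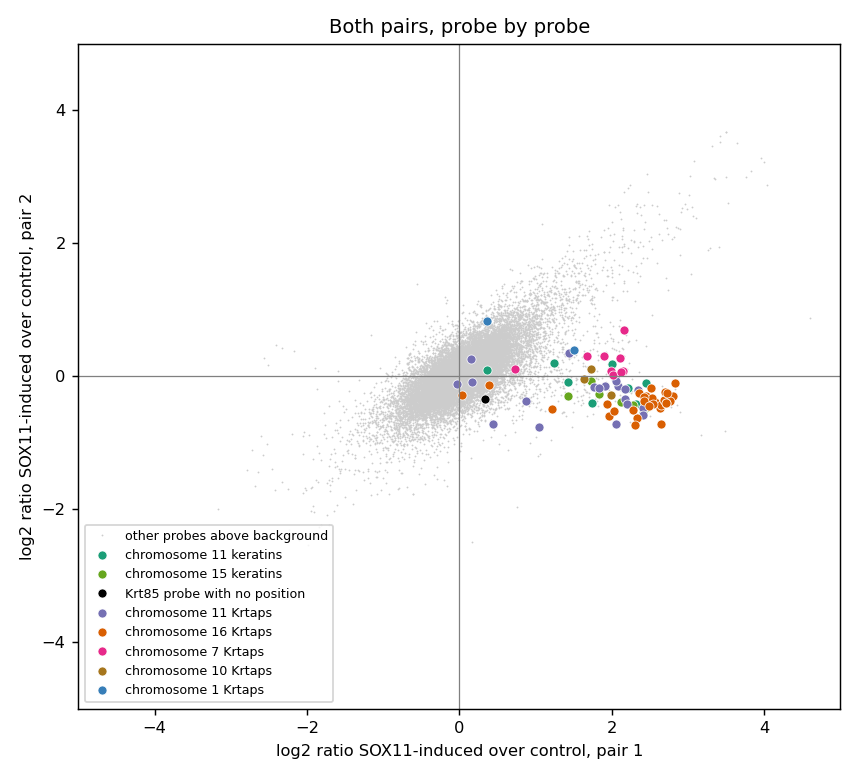
Log2 ratio of SOX11-induced over control signal in pair 1 (x axis) against pair 2 (y axis), both after loess. Coloured points are the 81 hair shaft probes by chromosome cluster, and grey points are the 21707 other probes with signal above background on each array. Grey points run along the diagonal, while most coloured points sit to the right of the cloud near or below 0 in pair 2, with the chromosome 7 and chromosome 1 points above 0.

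The chromosome 16 cluster held the largest pair 1 ratios. Its 29 probes stand for 22 Krtap genes (mm9, chr16:88611735-89570882) and include the subfamilies known as glycine- and tyrosine-rich, such as Krtap6, Krtap8, Krtap19, Krtap20 and Krtap21. Their median log2 ratio was 2.51 in pair 1, with 26 of 29 above 1.5, and -0.38 in pair 2, with 29 of 29 below 0 after loess (2 of 29 with median centring). The 3 highest pair 1 ratios among all members, taking 1 probe per gene, were those of Krtap20-2, Krtap19-5 and Krtap6-1.

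Krtap20-2 had levels of 13.73 and 16.56 in the control and SOX11-induced pups of pair 1, and 17.33 and 17.23 in those of pair 2. Its ratios were 2.83 and -0.09, with a mean of 1.37 ± 2.06 (SD, n = 2) and a limma adjusted p of 0.161. Another pair of Krtap20-2 probes gave 2.70 and 2.76 in pair 1 and -0.23 and -0.37 in pair 2, and the last was not well above background in any channel. Krtap19-5 had levels of 10.37 and 13.17 in pair 1 and 14.30 and 14.01 in pair 2, and its ratios were 2.80 and -0.29. Krtap6-1 had ratios of 2.72 and -0.25, from control levels of 13.28 in pair 1 and 16.92 in pair 2. In each of these 3 genes the control of pair 1 was far below the other 3 pups.

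Probes of this cluster show the repeat that gives the subfamilies their name. Capitals mark the triplets for glycine (GGN) and tyrosine (TAT or TAC) in a reading frame free of stop triplets, which was not checked against a protein.
Krtap20-2 probe, plus strand, mm9, chr16:89206222-89206281: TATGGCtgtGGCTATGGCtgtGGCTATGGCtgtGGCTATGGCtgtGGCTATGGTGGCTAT
Krtap16-1 probe, minus strand, mm9, chr16:88874321-88874380: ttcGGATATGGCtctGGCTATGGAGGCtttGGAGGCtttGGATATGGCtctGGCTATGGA
Such triplets made up 16 of 20 in the Krtap20-2 probe and 15 of 20 in the Krtap16-1 probe. The current RefSeq symbol for the Krtap16-1 probe's accession is Krtap19-2, and the array's name is kept here. Krtap16-1 had levels of 13.82 and 16.33 in pair 1 and 17.17 and 17.00 in pair 2. With repeats of this kind probes can share sequence, and 12 of 81 member probes shared a run of at least 20 bases with a probe of another name, none of them 40 or more. The 69 without such a run had medians of 2.05 and -0.30.

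The other bright genes of the cluster followed. Krtap8-1, a short glycine- and tyrosine-rich protein, gave 2.28 and -0.51, and Krtap22-2 gave 2.42 and -0.37. Krtap11-1, a cysteine-containing keratin-associated protein, gave 2.36 and -0.25, and its second probe 2.45 and -0.30. Krtap19-4, Krtap14, Krtap15, Krtap24-1 and Krtap26-1 ranged from 1.94 to 2.63 in pair 1 and from -0.63 to -0.38 in pair 2. Krtap21-1 had the widest gap between the controls of any member, 10.94 against 15.27, and ratios of 2.64 and -0.72. Krtap7-1, at -0.73 in pair 2, was among the 3 lowest members there on brightest probes. The Krtap13 probe was not well above background in any channel, while Krtap13-1 gave 1.96 and -0.60.

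**Figure D4:**
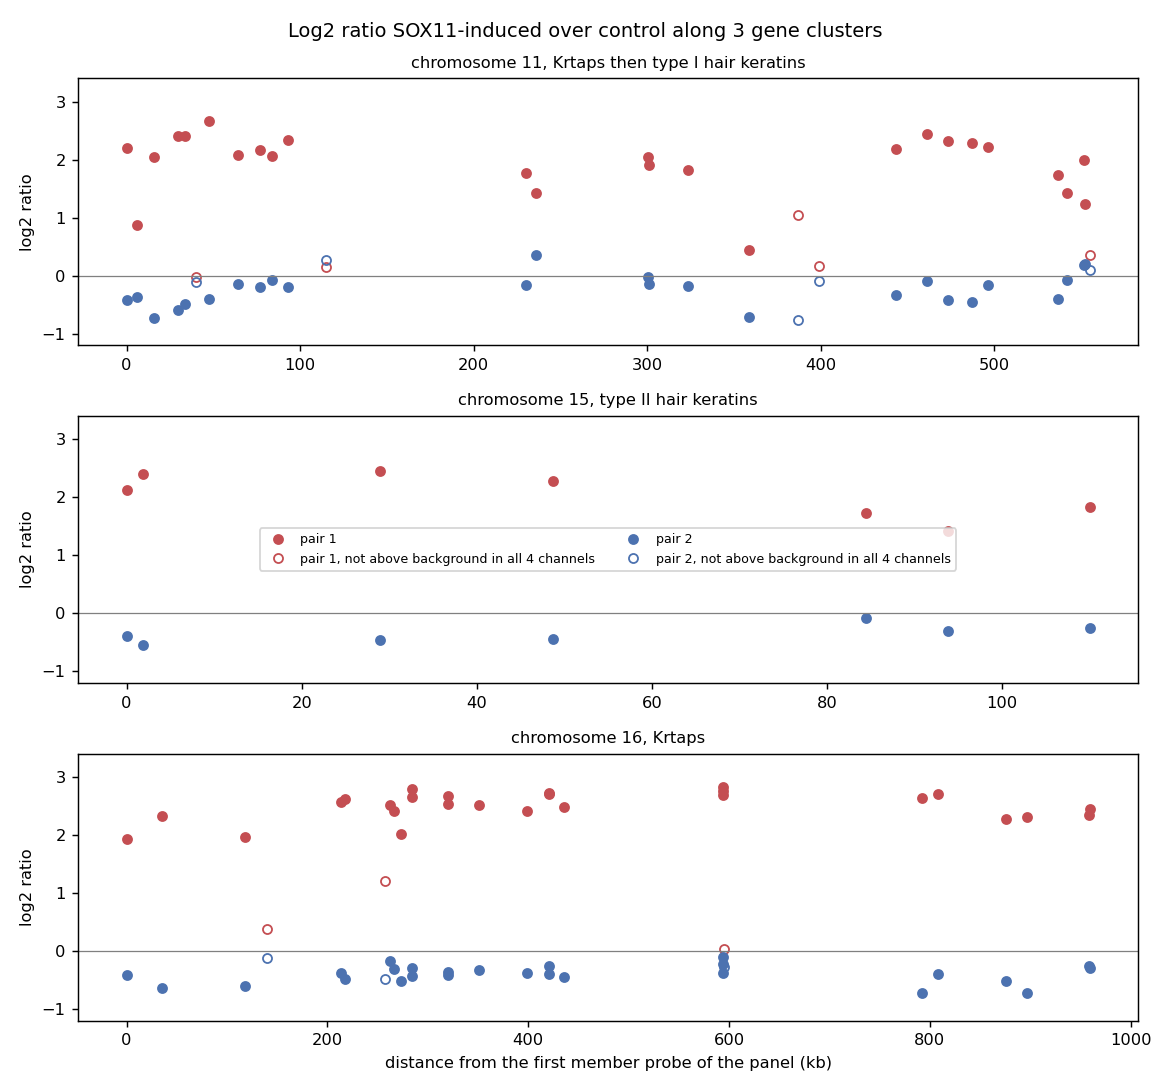
Log2 ratio of SOX11-induced over control signal after loess (y axis) against distance in kb from the first member probe of each panel (x axis), for the clusters on chromosomes 11, 15 and 16. Red is pair 1, blue is pair 2, and open points are probes not well above background in all 4 channels. Ratios in pair 1 stay high along most of each cluster, and the low ones are mostly open points.

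The chromosome 11 Krtap cluster lies beside the type I keratins (21 probes, 20 genes, mm9, chr11:99411448-99854715) and holds the cysteine-rich Krtap1, Krtap2, Krtap3, Krtap4 and Krtap9 subfamilies. Its median was 2.04 in pair 1 and -0.19 in pair 2, with 14 of 21 above 1.5 in pair 1 and 19 of 21 below 0 in pair 2 after loess. Krtap4-8, the brightest Krtap4 gene, had levels of 10.47 and 12.24 in pair 1 and 13.12 and 12.95 in pair 2. Krtap9-3 gave 2.66 and -0.41, Krtap1-5 2.40 and -0.59, Krtap17-1 2.18 and -0.33, and Krtap2-4 2.09 and -0.14. Krtap3-1 gave 2.05 in pair 1 and -0.72 in pair 2, among the 3 lowest there.

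Some genes of this cluster showed small ratios in pair 1. Krtap31-1 was low in every channel, with 5.83 and 6.27 in pair 1 and 6.98 and 6.26 in pair 2, and its ratios were 0.45 and -0.72. Its mean ratio of -0.14 turned to 0.13 with median centring. Krtap31-2 gave 1.04 and -0.76, and its level in the control of pair 1 was not well above background. Krtap9-5 gave 0.17 and -0.08 at levels between 5.76 and 6.76, again with the control of pair 1 not well above background. Krtap3-2 was brighter and gave 0.87 and -0.37, from levels of 8.56 and 9.43 in pair 1 and 10.39 and 10.02 in pair 2. Krtap4-9 stood out in pair 2 with 0.35, beside 1.43 in pair 1, and had a limma adjusted p of 0.0647 (0.0426 with a normexp offset of 50).

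The Krtap5 subfamily on chromosome 7 was the largest group above 0 in pair 2. It encodes very cysteine-rich proteins that in hair are known from the cuticle, and 9 probes stood for 5 genes (mm9, chr7:149360485-149490408). In pair 1 the ratios ran from 0.73 to 2.17 with a median of 2.02, and in pair 2 from 0.01 to 0.69 with a median of 0.11, so 9 of 9 were above 0. All 29 chromosome 16 probes lay below the lowest Krtap5 probe in pair 2, and the medians differed by 0.49. With median centring 25 of 29 did, and the medians differed by 0.44, so the order of the medians was the same under both. The probes of a group share genes and sequence and come from 1 array, and this difference has no test.

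Krtap5-3 had levels of 10.79 and 12.69 in pair 1 and 13.39 and 13.71 in pair 2, with ratios of 1.90 and 0.31. Krtap5-4 gave 1.67 and 0.31 and Krtap5-1 gave 1.99 and 0.09. Krtap5-5 was read by 4 probes, 3 of which gave 2.11 to 2.15 in pair 1 and 0.07 to 0.27 in pair 2, while the dimmest gave 0.73 and 0.11. The limma adjusted p over the 9 probes lay between 0.0245 and 0.224. Here too the control of pair 1 was the lowest of the 4 pups.

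Probes of 2 cysteine-rich subfamilies are shown for contrast with the glycine and tyrosine repeats above. Capitals mark the cysteine triplets (TGT or TGC) in a reading frame free of stop triplets, which was not checked against a protein.
Krtap5-5 probe, minus strand, mm9, chr7:149415305-149415363: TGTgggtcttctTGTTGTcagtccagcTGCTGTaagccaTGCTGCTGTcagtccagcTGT
Krtap4-8 probe, minus strand, mm9, chr11:99641467-99641526: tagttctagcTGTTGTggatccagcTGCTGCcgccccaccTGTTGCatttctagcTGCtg
Cysteine triplets made up 9 of 20 in the Krtap5-5 probe and 7 of 19 in the Krtap4-8 probe. The mm9 span that the array annotation gives for the Krtap5-5 probe is shorter than its printed sequence. The Krtap5-5 probe printed here gave 2.12 and 0.07, and the Krtap4-8 probe 1.77 and -0.17.

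Few probes lay on chromosomes 10 and 1. On chromosome 10, Krtap10-10 gave 1.73 and 0.11, Krtap10-4 gave 1.64 and -0.04 and Krtap12-1 gave 1.99 and -0.28. On chromosome 1, Krtap28-13 had levels of 9.09 and 10.60 in pair 1 and 11.61 and 12.00 in pair 2. Its ratios of 1.51 and 0.39 gave a mean of 0.95 ± 0.79 (SD, n = 2), with a limma adjusted p of 0.0566 (0.038 with a normexp offset of 50), and its pair 2 ratio was the highest on brightest probes among genes well above background on both arrays. Krtap28-10 gave 0.36 and 0.84, but neither pup of pair 1 was well above background. Over the 75 member probes above background on both arrays, which share genes and arrays, the ratios of pair 1 and pair 2 had a Pearson's r of -0.20 and a Spearman's rho of -0.32, and over all 21782 such probes r was 0.68 and rho 0.66. With the dim probes included, r was -0.32 over the 81 members and 0.53 over all probes.

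Many start regions of these genes, though not all, hold a feature that the choice of members did not use. RefSeq windows from 250 bases before to 50 bases after the start (GRCm38.p6) were at hand for 53 of the 65 genes. The letters TATAAA, searched on both strands, occurred in 43 of 53 windows (81.1%) and in 13.6% of all promoter windows. On the coding strand between positions -40 and -15 they occurred in 31 of 53 (58.5%) and in 2.11% of all windows. By cluster, TATAAA at that position was in 9 of 21 chromosome 16, 3 of 5 Krtap5, 3 of 5 type I keratin and 0 of 2 type II keratin windows. The letters ACAANG, a core found in many SOX and TCF/LEF sites, occurred on either strand in 30 of 53 (56.6%) and in 41.2% of all windows. They were in 14 of 21 chromosome 16, none of 5 Krtap5, 2 of 5 type I keratin and 2 of 2 type II keratin windows. Krtap4-9, Krtap28-13 and Krt36, which were also above 0 in pair 2 after loess, had them. Outside Krtap5, every member gene whose window lacked the letters was below 0 in pair 2 after loess. Krtap14, Krtap15 and Krtap11-1 of chromosome 16, Krtap3-1 of chromosome 11 and Krt34 are examples. A relation between these letters and the ratios was not tested. A match is a string of letters and was not tested for binding. The 100 bases before the start are printed for the gene with the highest pair 1 ratio, the gene with the passing probe, a main cortex keratin and a further chromosome 16 gene, with TATAAA in capitals.
Krtap20-2, plus strand, GRCm38.p6, chr16:89205761-89205860: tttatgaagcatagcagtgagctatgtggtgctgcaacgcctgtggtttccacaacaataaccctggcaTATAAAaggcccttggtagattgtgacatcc
Krtap5-2, minus strand, GRCm38.p6, chr7:142176006-142176105: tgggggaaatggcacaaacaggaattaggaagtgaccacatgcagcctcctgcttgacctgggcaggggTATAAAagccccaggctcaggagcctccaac
Krt31, minus strand, GRCm38.p6, chr11:100050552-100050651: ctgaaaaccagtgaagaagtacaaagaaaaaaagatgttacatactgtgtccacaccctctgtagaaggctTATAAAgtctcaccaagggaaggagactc
Krtap8-1, minus strand, GRCm38.p6, chr16:89487953-89488052: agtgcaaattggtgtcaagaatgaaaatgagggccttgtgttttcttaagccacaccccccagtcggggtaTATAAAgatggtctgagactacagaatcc

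Other follicle genes moved with the shaft genes between the pairs. Among 10 further shaft proteins the medians were 1.77 in pair 1 and -0.22 in pair 2, and none passed the test. S100a3, a calcium-binding protein of the hair cuticle, had levels of 12.46 and 14.59 in pair 1 and 15.43 and 15.24 in pair 2. Among 9 inner root sheath genes the medians were 1.62 and -0.27, and none passed. Krt71, a sheath keratin, gave 1.80 and -0.36, and trichohyalin (Tchh), which hardens the sheath, gave 1.62 and -0.27. The control of pair 1 was the lowest of the 4 pups for 10 of 10 shaft proteins and 9 of 9 sheath genes. Of the 138 probes above background with a ratio above 1.5 in pair 1 and below 0 in pair 2, 53 were members and 13 belonged to these lists. The other 72 were in neither.

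**Figure D5:**
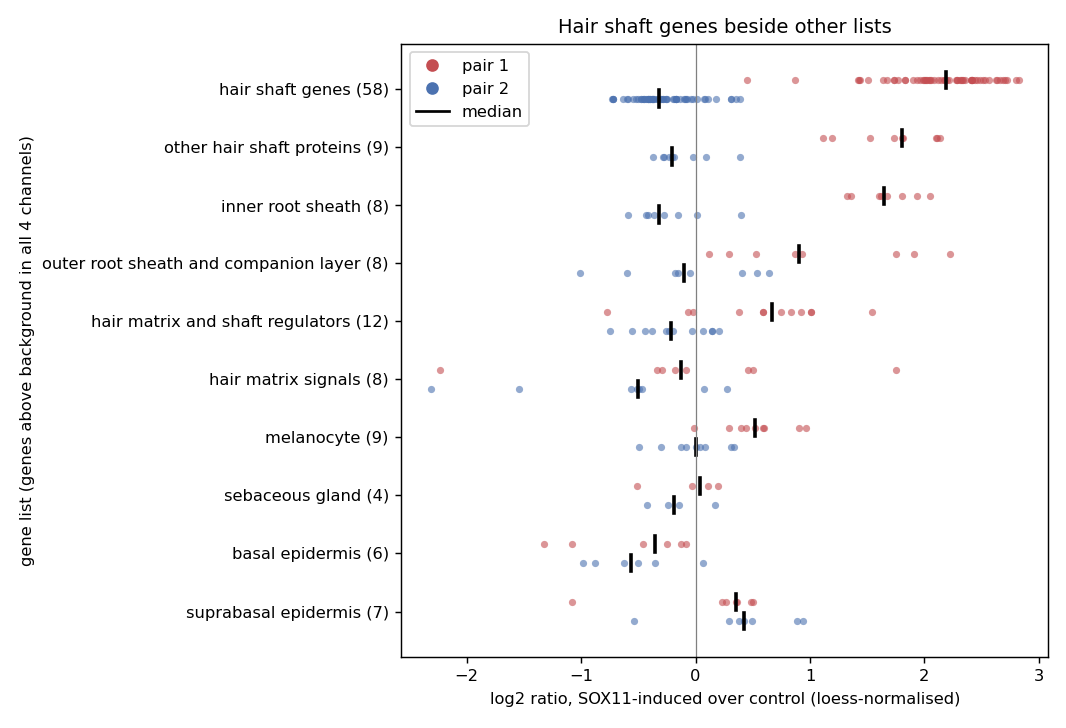
Log2 ratio of SOX11-induced over control signal after loess (x axis) for genes well above background in all 4 channels, 1 probe per gene, by gene list (y axis, with the number of genes). Red is pair 1, blue is pair 2, and black ticks are list medians. Shaft and inner root sheath genes are far apart between the pairs (2.19 and -0.32, 1.65 and -0.32), and the medians of the suprabasal epidermal genes lie near each other (0.36 and 0.42), although single genes such as Krt10 differ (0.23 and 0.94).

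Regulators and signals of the hair matrix gave a mixed picture. At an adjusted p under 0.05, passed by 2.99% of all probes as higher and 1.41% as lower, 1 of 13 regulators passed, Gata3, a factor needed for the inner root sheath, which was lower by a mean of -0.76 ± 0.02 (SD, n = 2) with a limma adjusted p of 0.0232. With median centring its mean was -0.10 and the adjusted p 0.642, and with median spot brightness the adjusted p was 0.0575. The medians of the 13 regulators were 0.59 in pair 1 and -0.19 in pair 2. In pair 1, 1 of 13 was above 1.5 (0.83% of all probes). The highest pair 1 ratios were those of Msx2 (1.54 and -0.03), Hoxc13, Lef1 and Foxn1. Hoxc13, an activator of hair keratin genes, gave 1.01 and -0.19, and Lef1 1.01 and 0.14. Foxn1, the factor lacking in nude mice, gave 0.92 and -0.44. Lower in the list, Dlx3 gave 0.59 and -0.23, Ovol1 -0.02 and 0.20, and Foxq1 -0.06 and -0.55. Of 11 matrix signals 2 passed, both lower, beside the 1.41% of all probes. Wnt10a, a Wnt ligand, was lower in both pairs by a mean of -2.27 ± 0.06 (SD, n = 2), and Wnt10b by -0.63 ± 0.10 (SD, n = 2), with limma adjusted p values of 0.000101 and 0.0499 (0.0501 for Wnt10b with median centring). Wnt5a, by contrast, gave 1.75 and -0.56. Wnt10b was not well above background in the SOX11-induced pup of pair 1. Its levels in the SOX11-induced pups, 5.62 and 5.74, were near the lowest level well above background. The Wnt10b mean was -0.41 with a normexp offset of 50 and -1.53 from processed signals. Shh was not well above background in any channel.

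Of 9 outer root sheath and companion layer genes, 2 passed as higher, Krt16 and Krt6a, both of which are also keratins of stressed epidermis (2.99% of all probes). Lgr5, a stem cell marker, passed as lower (1.41% of all probes) although it was well above background in 1 channel. Krt6a gave 2.23 and 0.53, and its limma adjusted p of 0.0421 was 0.0585 with median spot brightness and 0.0914 among probes above background alone. Krt16 gave 0.87 and 0.65, while Krt75, a companion layer keratin, gave 1.91 and -0.18.

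In the epidermis itself, 2 of 6 basal genes passed as lower on their brightest probes (1.41% of all probes). They were the basal keratin Krt15, by -1.03 ± 0.07 (SD, n = 2), and the hemidesmosome collagen Col17a1, by -1.10 ± 0.31 (SD, n = 2). Their limma adjusted p values were 0.00573 and 0.00669. Of 8 suprabasal genes 1 passed as lower (1.41% of all probes), Krt77, with -1.08 and -0.54 and a limma adjusted p of 0.0337. With median centring the adjusted p of these 3 genes was 0.216 for Krt15, 0.0615 for Col17a1 and 0.573 for Krt77. A dimmer probe of Itga6, a basal integrin, gave a mean of 3.38 where its brightest probe gave -0.01.

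The gap between the controls differed from list to list. The control of pair 2 minus the control of pair 1 had a median of -0.27 over 6 basal epidermal genes and -0.28 over 7 suprabasal genes, compared with 2.20 over inner root sheath genes. Over 9 melanocyte genes it was 0.17, and the melanocyte medians were 0.52 in pair 1 and 0.00 in pair 2 over those genes. Over 5 leukocyte genes it ran the other way, with a median of -1.05 and a range of -2.46 to -0.50. Cd207, a marker of Langerhans cells, had 10.42 and 10.09 in pair 1 and 7.96 and 7.81 in pair 2. Of 9 dermal papilla genes, 8, including Corin, Fgf7 and Sox2, were not well above background in any channel. Of 8 fibroblast genes 4 were not. Decorin (Dcn), a matrix proteoglycan, was the fibroblast gene that passed (1.41% of all probes passed as lower). It was lower with -0.97 and -0.62 and a limma adjusted p of 0.026 (0.29 with median centring). The collagen genes Col1a1, Col1a2 and Col3a1 gave -0.17 to -0.03 in pair 1 and 0.77 to 1.14 in pair 2 and did not pass. The part of follicle or leukocyte content in the shaft gene values was not tested.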

How the data were processed

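The data were 2 two-colour Agilent arrays, each a SOX11-induced pup against its littermate control. Per the file headers, Agilent Feature Extraction 10.7.3.1 gave the deposited intensity values (spot and background brightness in scanner units, not normalized, and processed signals) with probe positions on mm9. The authors' series table holds log2 ratios that matched median spot brightness after normexp and loess (r of 1.00 on both arrays), and it was used as an alternative. The deposited log10 ratio column was not used.

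Spot means were background-corrected by normexp (offset 16) and then centred by loess within each array, with control spots at weight 0, using limma 3.58.1 in R 4.3.3. Flagged spots were dropped and spots of 1 probe averaged. A linear model with an intercept and empirical Bayes (lmFit, eBayes) was fitted over 55676 probes, with Benjamini-Hochberg adjustment. The prior SD was 0.223. Channel levels were the Aquantile-scaled log2 values. Both arrays lay on 1 slide, and nothing beyond the 2 pairs measures the error. The arrays' number limits the precision. The fit was tested on simulated data.

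Members and gene lists were chosen with earlier results of these data known. Named genes were every hair keratin, the brightest gene of each Krtap subfamily, called members, and the 3 highest and 3 lowest in each pair, on the brightest probe per gene. Protein composition classes were not made. Of the 81 probes 77 matched a RefSeq gene by accession or symbol, and 2 had another symbol there, the Krtap16-1 and Krt83 probes. Lists not detailed in the report gave, in pair 1 and pair 2, medians of 0.11 and -0.14 (sebaceous gland), -0.37 and -0.07 (leukocyte), -0.13 and 0.04 (muscle) and 0.10 and -0.06 (endothelium). Alternatives were normexp offset 50, median centring, processed signals, median spot brightness, the series table, a filter on dim probes, 1 probe per gene, probes without shared sequence, each pair alone, and an unpaired fit over the 4 channel levels.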

Additional observations from a re-analysis of the deposited data

How the results depend on the processing

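The pair 1 median of the hair shaft probes stayed between 2.03 and 2.28 under the other normalizations and filters except for 2.68 with median centring. The pair 2 median stayed between -0.31 and -0.17 except for 0.48 with median centring, where the sign turned. With the median of all probes above background subtracted in each setting, an alternative chosen after seeing the data, it was -0.06 there. The count of called probes was 0 except for 54 with median centring, and 1 at an adjusted p under 0.05 either alone or with a linear 1.5-fold difference. The median of the mean log2 ratios, 0.95 over both pairs, ranged from -0.28 without replicate 1 to 2.12 without replicate 2, so its sign rests on pair 1. The gap between the controls, 3.08, was 3.37 from processed signals, also chosen after seeing the data. Among the 44 named genes, 43 of 264 alternative values moved an adjusted p to under 0.05, with median centring in all but 2 of them, and Krtap31-1 turned to 0.13 with median centring. With 1 pair alone, 38 of 88 values had the opposite sign of the mean. The pups of a pair share an array, so the reported ratios are paired values. The 4 channel levels were also fitted unpaired, with no replicate block, a setting again chosen after seeing the data. In that fit limma called 0 of 81 hair shaft probes (236 of all 55676 probes tested). An unadjusted p under 0.05 was found for 0 of 81 (8216 of all 55676), and the lowest adjusted p of the 81 was 0.472. Of the list genes that passed on their brightest probes in the paired fit, Wnt10a and Col17a1 had an adjusted p under 0.05 there, and the others did not. Arrays give no read depth. From processed signals no probe of the whole array had an adjusted p under 0.05, the lowest being 0.242, so no call of a gene list held there. Probes near the lowest level well above background, 5.40 to 5.55 on the log2 scale, carry no order.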
